A study of Homo sapiens with 6 samples.

Results

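The 10 genes described here encode the cohesin complex and the proteins that load and release it. They were chosen by name, as the cohesin genes RAD21, SMC1A, SMC3, STAG1, STAG2, NIPBL, MAU2, WAPL, PDS5A and PDS5B, and each matched 1 of the 27576 Ensembl gene rows of the deposited expression table. RNA had been sequenced from Kasumi-1, a human line of acute myeloid leukaemia with the t(8;21) translocation, which fuses RUNX1 to RUNX1T1, kept in RPMI1640 medium with 20% fetal bovine serum. The IL-10 group holds 3 libraries of cells exposed for 72 h to 10 ng/ml of interleukin-10, as the recombinant human protein, and the control group holds 3 libraries of cells exposed to 0.5% BSA (bovine serum albumin) over the same time. All 6 libraries come from 1 established line, and the labels number the replicates without saying that they were separate cultures. The p-values therefore reflect how far these samples differed, which may be technical variation only. In bulk RNA of this kind, fewer cells of a type and less RNA per cell cannot be told apart.

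Cohesin is a ring built from SMC1A, SMC3 and the kleisin RAD21, to which STAG1 or STAG2 binds. NIPBL and MAU2 together load the ring onto DNA, where it holds sister chromatids together and extrudes chromatin loops, while WAPL with PDS5A or PDS5B takes it off again. Cohesin genes are often mutated in myeloid leukaemia, and in t(8;21) leukaemia in particular.

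Across the 10 genes, IL-10 and control libraries carrying the same replicate number gave nearly the same values in pairs 1 and 3, and the values of pair 2 differed widely. IL-10 replicate 2 held the lowest value of the 6 libraries in 8 of the 10 genes and the highest in MAU2. None of the 10 genes passed the test between the groups.

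The libraries held 20750115 to 24222897 reads in genes. IL-10 replicate 2 stood apart from the other 5 libraries. The mean squared difference between libraries, in units of counting noise over 11604 genes of mean at least 50, was 2.97 in pair 1 and 2.21 in pair 3, where counting alone gives about 1. It was 145 in pair 2, and 18.4 to 56.8 for other combinations that left out IL-10 replicate 2. The Kasumi-1 markers RUNX1T1, RUNX1, KIT, CD34, MPO and CD33 were detected in every library, with summed levels of 139026 to 222191 in IL-10 libraries and 137495 to 234819 in control libraries. Most of the sum was MPO and KIT, which varied between libraries. MPO ran from 66945 in control replicate 3 to 160649 in IL-10 replicate 2, and KIT from 29296 in IL-10 replicate 2 to 54533 in control replicate 1. Of the 5 liver markers, TF, APOB, ALB and AFP were at or near 0 outside the replicate 2 libraries. Their summed level with APOA1 was 291 in IL-10 replicate 2, 659 in control replicate 2 and 12.8 to 23.1 in the other 4. T cell markers summed to 1765 to 2628 in IL-10 and 1626 to 2367 in control libraries, nearly all from CD3D, and B cell markers to 259.7 to 434 in IL-10 and 276 to 326 in control libraries. Epithelial markers summed to 1586 to 1947 with IL-10 and 1851 to 1905 in control, mostly EPCAM. The others, KRT8 and KRT18, were higher in the replicate 2 libraries, as the liver markers were. KRT8 stood at 87.0 in IL-10 replicate 2, 156 in control replicate 2 and 4.28 to 11.2 in the other 4. KRT18 stood at 11.8 in IL-10 replicate 2, 19.9 in control replicate 2 and 0 to 1.07 in the other 4. The 2 erythroid markers in the table summed to at most 18.8, and COL1A1, for fibroblasts, to at most 4.70. The part of these other transcripts in the cohesin values was not tested.

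Promoter windows from RefSeq (GRCh38.p14, 250 bases before to 50 after a transcript start) were found for 9 of the 10 genes. RAD21 had none. There were 12 windows in all. They were searched on both strands for the letters TTCNNNGAA (a STAT site, the family through which IL-10 signals), TGTGGT (RUNX), CCGGAAG (ETS), GGGCGG (GC box) and CCAAT, and no base lay in matches of more than 1 motif. The 3 windows shown are those of SMC3 and MAU2, which lay at opposite ends in IL-10 replicate 2 below, and of PDS5B, the 1 gene whose window held the RUNX letters. Matches to any of the motifs are in capitals.
SMC3, chr10:110567445-110567744, plus strand: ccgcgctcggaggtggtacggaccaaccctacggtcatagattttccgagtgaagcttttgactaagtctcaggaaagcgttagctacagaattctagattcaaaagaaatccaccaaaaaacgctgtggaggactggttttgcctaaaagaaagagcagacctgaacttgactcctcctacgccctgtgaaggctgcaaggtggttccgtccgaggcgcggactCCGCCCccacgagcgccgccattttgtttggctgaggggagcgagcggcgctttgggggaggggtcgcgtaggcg
MAU2, chr19:19320579-19320878, plus strand: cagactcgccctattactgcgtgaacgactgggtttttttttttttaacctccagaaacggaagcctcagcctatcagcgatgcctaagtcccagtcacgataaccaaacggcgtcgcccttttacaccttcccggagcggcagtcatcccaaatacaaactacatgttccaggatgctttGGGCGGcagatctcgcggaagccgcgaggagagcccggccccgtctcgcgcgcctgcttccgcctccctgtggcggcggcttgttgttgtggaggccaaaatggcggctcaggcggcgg
PDS5B, chr13:32586202-32586501, plus strand: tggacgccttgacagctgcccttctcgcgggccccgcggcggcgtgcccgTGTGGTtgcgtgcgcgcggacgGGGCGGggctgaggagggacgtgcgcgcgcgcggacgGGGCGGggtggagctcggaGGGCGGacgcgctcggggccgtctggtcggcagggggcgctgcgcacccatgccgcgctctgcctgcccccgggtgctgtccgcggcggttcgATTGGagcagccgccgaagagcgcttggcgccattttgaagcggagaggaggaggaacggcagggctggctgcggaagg
The GC box letters were in all 12 windows of the 9 genes, against 45.0% of 35114 promoter windows. CCAAT was in 6 of the 12, from 5 genes (PDS5A, PDS5B, STAG1, STAG2 and WAPL), against 34.6% of all windows. CCGGAAG was in 3 of the 12, from NIPBL and SMC1A, 2 of the 9 genes (10.3% of all windows), and TGTGGT in 1, that of PDS5B (13.1%). The windows of SMC1A overlap each other, so 1 site can count in both, and STAG2 also has more than 1 window. Counts of windows are therefore not counts of separate promoters. The STAT letters were in 0 of the 12 windows and in 7.66% of all. The SMC3 and MAU2 windows were alike in GC content, at 56.0% and 58.7%, close to the median of 58.7% over all windows, and the PDS5B window held 75.7%. All the members' windows but those of SMC3 and MAU2 lay above that median, up to 76.3% for WAPL. The part of window GC content in the motif matches was not tested.

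SMC3 (ENSG00000108055, GRCh38 chromosome 10, 110567691 to 110604636), an ATPase subunit that forms 1 arm of the ring, had 2312, 904 and 2051 normalised reads in IL-10 replicates 1, 2 and 3, against 2165, 2043 and 2097 in control replicates 1, 2 and 3. IL-10 replicate 2 alone was low, the other 5 libraries lay close together, and the groups overlapped. The means were 1755 ± 749 with IL-10 and 2102 ± 61.4 in control (SD, n = 3 each). The log2 fold change was -0.37 (95% interval -1.09 to 0.35, limma adjusted p = 0.982), the most negative of the 10, and without IL-10 replicate 2 it was 0.05 (-0.16 to 0.27).

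SMC1A (ENSG00000072501, chromosome X, 53374149 to 53422728), the other ATPase arm, had 7341, 7592 and 6788 normalised reads in the IL-10 replicates and 7257, 7763 and 6631 in the control replicates. Its values followed the replicate number, with replicate 2 highest and replicate 3 lowest in both groups, and the groups overlapped throughout. The log2 fold change was 0.01 (95% interval -0.34 to 0.35, adjusted p = 0.997).

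RAD21 (ENSG00000164754, chromosome 8, 116845935 to 116874866), the kleisin that closes the ring, had 3789.8, 2460.03 and 3773 normalised reads with IL-10 and 3797, 3592 and 3878 in control. The 2 IL-10 libraries of pairs 1 and 3 lay inside the control range and IL-10 replicate 2 lay below it. The log2 fold change was -0.20 (95% interval -0.64 to 0.25, adjusted p = 0.982), or 0.01 (-0.18 to 0.20) without IL-10 replicate 2. Exons of RAD21 overlap those of UTP23 on the other strand by 1127 bases. Use of strand in the counting is not given in the sources used here, so reads of that stretch cannot be told apart. UTP23 stood at 791, 534 and 732 with IL-10 and 813, 922 and 759.8 in control.

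STAG2 (ENSG00000101972, chromosome X, 123960212 to 124422664), the STAG subunit most often mutated in myeloid leukaemia, had 4715, 2143 and 5136 normalised reads with IL-10 and 4664, 4394 and 4765 in control. IL-10 replicate 3 held the highest value and IL-10 replicate 2 the lowest, on either side of all the controls. The log2 fold change was -0.30 (95% interval -0.99 to 0.38, adjusted p = 0.982), and 0.10 (-0.11 to 0.30) without IL-10 replicate 2.

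STAG1 (ENSG00000118007, chromosome 3, 136336233 to 136752403), the paralogue that can take the place of STAG2, had 1276, 932 and 1020.1 normalised reads with IL-10 and 1189.7, 1575 and 986 in control. It was the member with the widest control spread relative to its mean, with control replicate 2 the highest of all 6 libraries and IL-10 replicate 2 the lowest. The means were 1076 ± 179 with IL-10 and 1250.2 ± 299 in control (SD, n = 3 each), and the log2 fold change was -0.20 (95% interval -0.69 to 0.28, adjusted p = 0.982), or -0.10 (-0.55 to 0.34) without IL-10 replicate 2. Exons annotated to STAG1 overlap those of PCCB, a mitochondrial carboxylase subunit on the other strand, by 3327 bases, and PCCB stood at 4149.99, 5829 and 3784 with IL-10 and 4088, 4327 and 3706 in control.

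**Figure D1:**
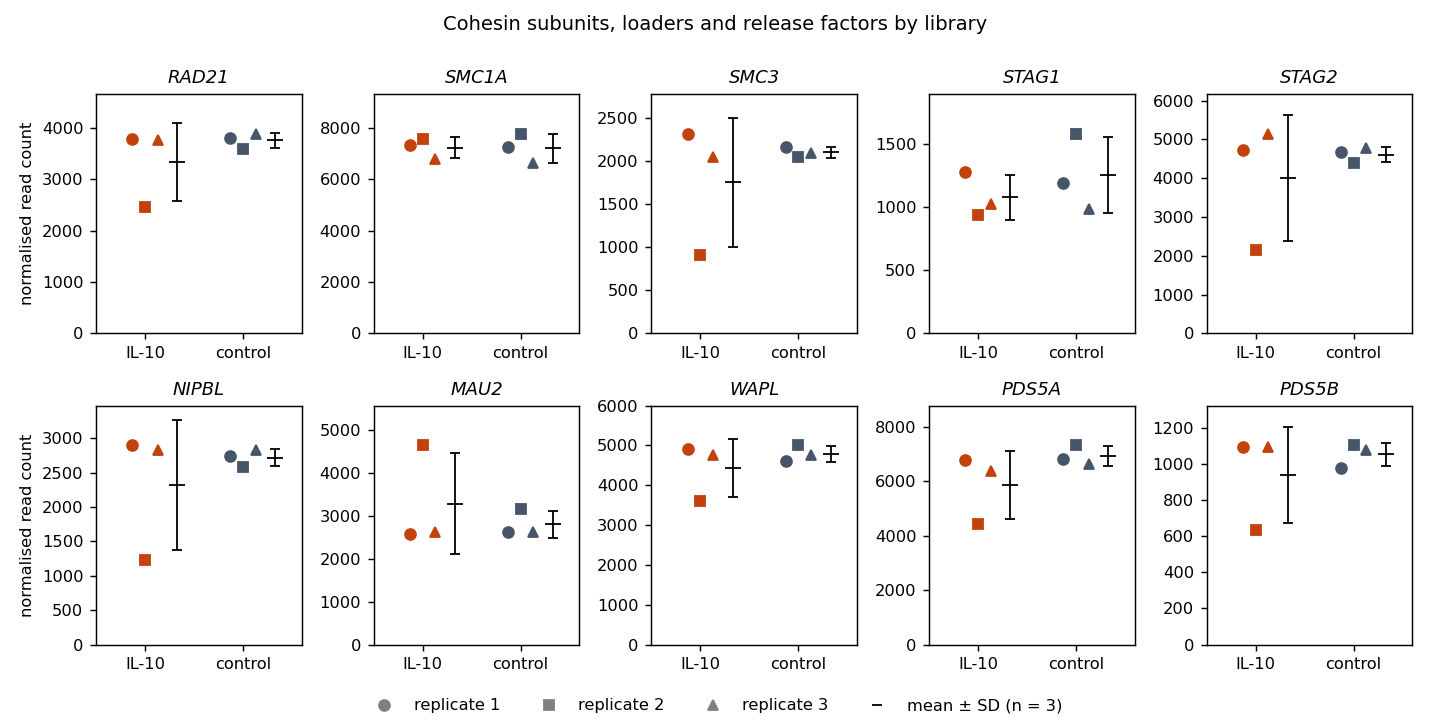
Normalised read counts (vertical axis, linear from 0) of the 10 genes in each library, with the IL-10 group left of the control group in every panel; circles, squares and triangles are replicates 1, 2 and 3, and bars are mean ± SD (n = 3). The IL-10 square lies below all other points in 8 panels, within the range of the others for SMC1A and above all for MAU2.

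The 2 loader genes lay at opposite ends in IL-10 replicate 2. NIPBL (ENSG00000164190, chromosome 5, 36876759 to 37066413), the large loader subunit that also stimulates the ATPase of cohesin, had 2897, 1232 and 2828 normalised reads with IL-10 and 2747, 2579.5 and 2834 in control. MAU2 (ENSG00000129933, chromosome 19, 19320681 to 19358755), its binding partner, had 2573, 4638 and 2622 with IL-10 and 2628, 3162 and 2613 in control. Both replicate 2 libraries were the 2 highest for MAU2 and the 2 lowest for NIPBL. The log2 fold changes were -0.33 for NIPBL (95% interval -1.03 to 0.36) and 0.18 for MAU2 (-0.37 to 0.72), each with an adjusted p of 0.982 in limma. Without IL-10 replicate 2 they were 0.07 (-0.13 to 0.27) and -0.10 (-0.35 to 0.15).

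Of the release factors, WAPL (ENSG00000062650, chromosome 10, 86435256 to 86521815), which opens the ring, had 4918, 3592 and 4763 normalised reads with IL-10 and 4612, 5001 and 4746 in control. Its log2 fold change was -0.13 (95% interval -0.52 to 0.26, adjusted p = 0.982). PDS5A (ENSG00000121892, chromosome 4, 39822863 to 39977956), a scaffold that recruits WAPL or the acetyltransferases, had 6794, 4449.9 and 6395 with IL-10 and 6829.8, 7327 and 6625 in control. PDS5A was the gene of smallest p among the 10 (unadjusted p = 0.212, adjusted p = 0.982 in limma), with a log2 fold change of -0.26 (95% interval -0.70 to 0.18). For both genes IL-10 replicate 2 was the lowest library and control replicate 2 the highest. PDS5B (ENSG00000083642, chromosome 13, 32586427 to 32778019), its paralogue, had 1093, 635 and 1093 with IL-10 and 981, 1104 and 1077 in control, and again only IL-10 replicate 2 was low. Its log2 fold change was -0.21 (95% interval -0.73 to 0.31, adjusted p = 0.982). The groups overlapped for all 3 genes, and without IL-10 replicate 2 their log2 fold changes were 0.02 for WAPL, -0.07 for PDS5A and 0.05 for PDS5B.

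The comparison of the groups asks which transcripts differed after 72 h of IL-10. In limma 0 of the 10 members and 0 of the 21946 genes tested passed an adjusted p of 0.05 (0% called), with 0 members and 344 genes (1.57%) at an unadjusted p under 0.05. On the recovered reads, edgeR and DESeq2 also called 0 members and 0 genes, with 257 and 94 genes at an unadjusted p under 0.05. The groups overlapped in all 10 members, while they did not overlap in 5.87% of the genes tested. The log2 fold change was negative in 8 of 10 members, against 48% of genes. Their median was -0.20, beside 0.02 over all genes tested. Both values rest on 1 library. Without IL-10 replicate 2 the median was 0.01 and 4 of 10 were negative, and with array weights, which count a deviating library less, they were 0.03 and 3 of 10. With equal totals, TMM or quantile scaling 9 of 10 were negative, SMC1A changing sign. The median over all genes was then -0.08, 0.003 and 0.02, so with equal totals the whole table moved down. The members' 95% intervals reached a median of 0.50 on the log2 scale to either side, against 0.49 for genes of mean at least 50.

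**Figure D2:**
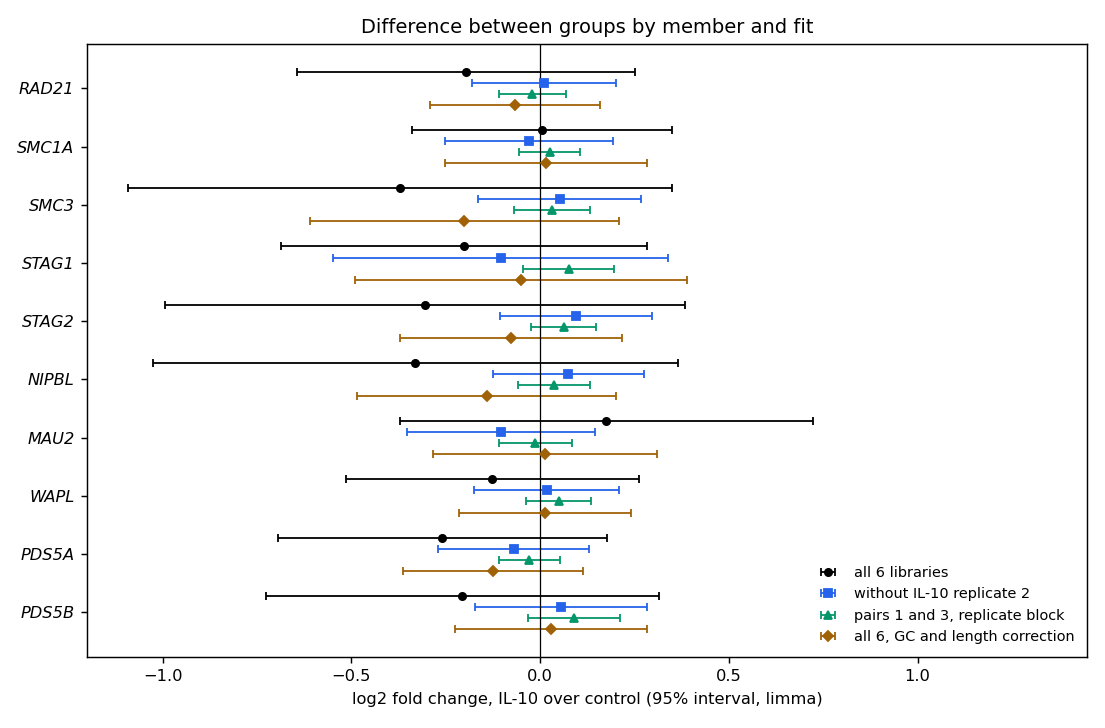
Log2 fold change of IL-10 over control (horizontal axis) with its 95% interval from limma for each gene, in 4 fits marked by symbol and colour. All the intervals include 0, and those of pairs 1 and 3 with the replicate block are the narrowest.

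Within same-numbered pairs, where each ratio compares 1 IL-10 library with 1 control library and not the conditions, the members differed little in pairs 1 and 3. In pair 1 the log2 ratios lay between -0.03 (MAU2) and 0.16 (PDS5B), with a median of 0.05, and in pair 3 between -0.05 (PDS5A) and 0.11 (STAG2), with a median of 0.01. The exact 95% counting interval of the ratio included 0 for 6 of the 10 genes in pair 1 and 8 of 10 in pair 3. In pair 1 it left out 0 for SMC3 (0.09, interval 0.01 to 0.18), NIPBL (0.08, 0.000945 to 0.15), WAPL (0.09, 0.03 to 0.15) and PDS5B (0.16, 0.03 to 0.28). In pair 3 it left out 0 for STAG2 (0.11, 0.05 to 0.16) and PDS5A (-0.05, -0.10 to -0.003). No gene left out 0 in both pairs. Such intervals cover counting error only, and the share of all genes whose interval left out 0 is not given here. Over 11604 genes the mean squared difference, in units of counting noise, was 2.97 in pair 1 and 2.21 in pair 3. The member counts are therefore a description and not a trait of these genes.

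In pair 2 the same ratio was -1.18 for SMC3, -1.07 for NIPBL, -1.04 for STAG2, -0.80 for PDS5B, -0.76 for STAG1, -0.72 for PDS5A, -0.55 for RAD21 and -0.48 for WAPL. It was -0.03 for SMC1A, the 1 gene whose counting interval included 0 (-0.08 to 0.02), and 0.55 for MAU2. A difference of 1.5-fold or more was seen in 6 of the 10 members in pair 2, where 35.2% of the 11604 genes of mean at least 50 differed as much, and in 0 members in pairs 1 and 3, where 0.612% and 0.414% of genes did. The fit of pairs 1 and 3 with the replicate as a block called 0 members and 11 of 20308 genes (0.0542%). Its member log2 fold changes lay between -0.03 (PDS5A, 95% interval -0.11 to 0.05) and 0.09 (PDS5B, -0.03 to 0.21), and no member's interval reached beyond -0.11 or 0.21. That fit has 1 residual degree of freedom and borrows its spread from all genes.

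**Figure D3:**
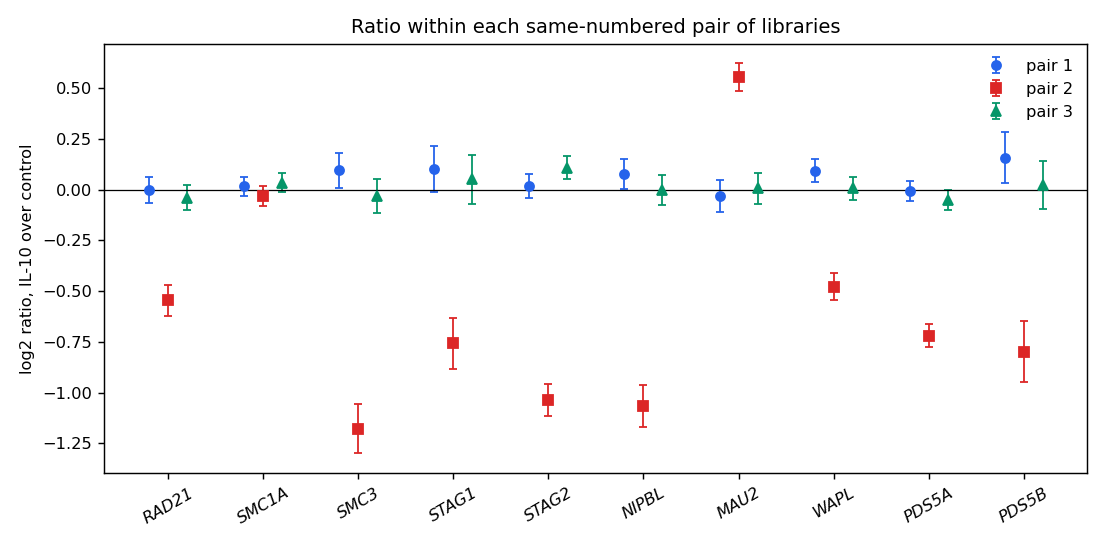
Log2 ratio of IL-10 over control within each same-numbered pair of libraries (vertical axis) for the 10 genes, with exact 95% counting intervals. Pair 2 (squares) runs from -1.18 for SMC3 to 0.55 for MAU2, and pairs 1 and 3 stay between -0.05 and 0.16.

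The order of the members in IL-10 replicate 2 tended to follow the GC content of their transcripts. Transcript GC was 36.5% for PDS5B, 36.6% for STAG2, 38.9% for SMC3, 39.5% for NIPBL, 40.2% for STAG1, 40.7% for RAD21, 40.8% for WAPL, 41.3% for PDS5A, 47.2% for SMC1A and 57.3% for MAU2. On the log2 scale this library, set against the mean of the 5 others, deviated by 0.77 for MAU2 and 0.09 for SMC1A. The deviation was negative in the other 8, from -0.35 for STAG1 to -1.24 for SMC3. Across the 10 genes, which share this library, GC content and deviation had a Spearman rho of 0.81, given as a description. Across 11575 genes, which are not independent replicates, the value was 0.77.

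The 11575 genes were then split by GC content into 10 bins of nearly equal size. The median deviation of IL-10 replicate 2 was -0.75 in the bin of lowest GC, which holds PDS5B (-0.75) and STAG2 (-1.14). In the next bin it was -0.49, beside -1.24 for SMC3, -1.17 for NIPBL, -0.61 for RAD21, -0.42 for WAPL and -0.35 for STAG1. PDS5A stood at -0.61 where its bin had -0.33. SMC1A stood at 0.09 where its bin had 0.08, and MAU2 stood at 0.77 where its bin had 0.61. With GC content and length corrected within each library, the deviation in IL-10 replicate 2 lay between -0.17 and 0.27 in 7 of the genes. It was still -0.66 for SMC3, -0.51 for NIPBL and -0.37 for STAG2. The corrected log2 fold changes between the groups lay between -0.20 (SMC3, 95% interval -0.61 to 0.21) and 0.03 (PDS5B, -0.22 to 0.28), with a median of -0.06 and adjusted p-values of 1 in limma. The part of GC content in the members' values was not tested beyond this correction.

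**Figure D4:**
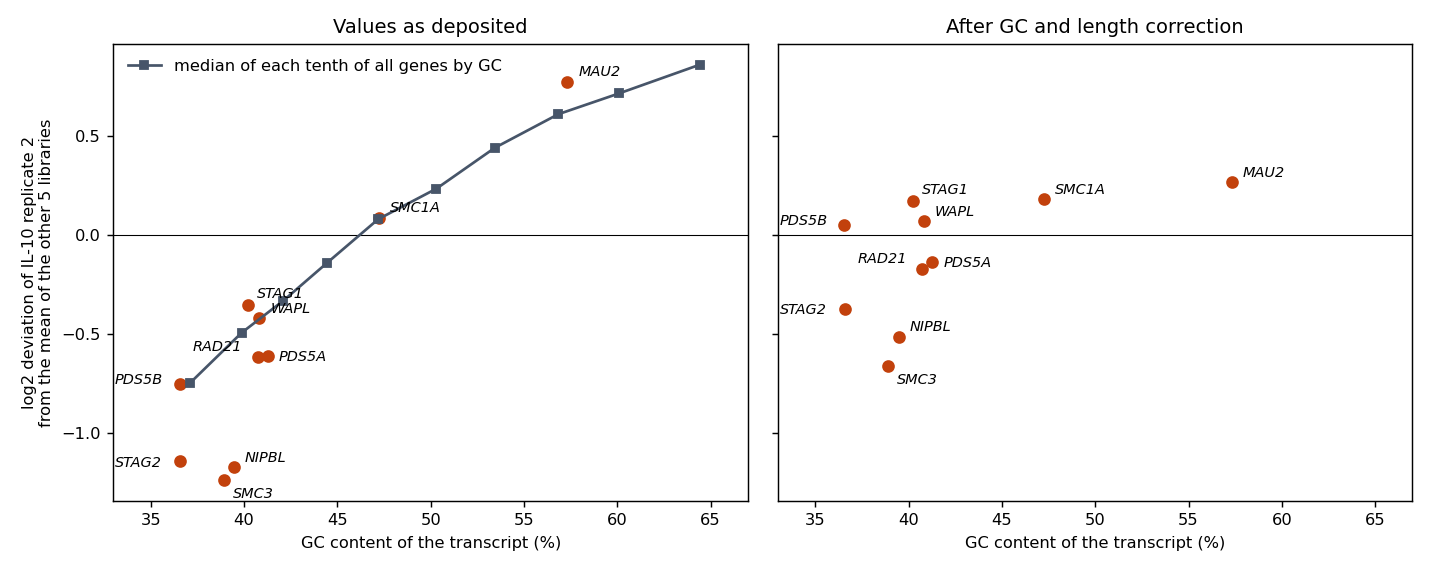
Deviation of IL-10 replicate 2 on the log2 scale, relative to the mean of the 5 others (vertical axis), by transcript GC content (horizontal axis, percent) for the 10 genes, as deposited on the left and after the GC and length correction on the right; the line joins the medians of 10 GC bins of all genes. MAU2 lies highest and SMC3 lowest in both panels, at 0.77 and -1.24 on the left and 0.27 and -0.66 on the right.

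Levels were compared between genes as normalised reads per kilobase of annotated exon (the union of exons of all transcripts). SMC1A was highest, at 691 ± 39.2 in IL-10 libraries and 688 ± 54.1 in control libraries (SD, n = 3 each). Next were WAPL (612 ± 100.3 with IL-10, 662 ± 27.4 in control), RAD21 (539.5 ± 123 with IL-10, 607 ± 23.8 in control), STAG2 (488 ± 198 with IL-10, 563 ± 23.4 in control), PDS5A (482 ± 103 with IL-10, 568 ± 29.6 in control) and SMC3 (411 ± 175 with IL-10, 492 ± 14.4 in control). MAU2 (294 ± 106 with IL-10, 251 ± 28.1 in control), NIPBL (185 ± 75.2 with IL-10, 217 ± 10.3 in control) and STAG1 (137 ± 22.8 with IL-10, 159 ± 38.1 in control) were lower, and PDS5B was lowest (71.2 ± 20.04 with IL-10, 79.8 ± 4.88 in control). Of neighbours in this order, only STAG1 and PDS5B had ranges over the 6 libraries that did not overlap. WAPL was above RAD21 and PDS5A above SMC3 in 6 of 6 libraries, SMC1A above WAPL and STAG2 above PDS5A in 4 of 6, STAG1 above PDS5B in 6 of 6, and the remaining neighbours kept their order in 5 of 6. The order depends on the length used: per kilobase of the longest coding transcript RAD21 came first and MAU2 passed SMC3, since the exons annotated to MAU2 span 11145 bases and its longest coding transcript 4994. PDS5B, STAG1 and NIPBL had the lowest levels by either length.

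Ratios between partners and paralogues were taken per kilobase within each library. The STAG2/STAG1 ratio was 3.54, 2.20 and 4.82 in IL-10 replicates 1 to 3 and 3.76, 2.67 and 4.63 in control replicates 1 to 3. STAG2 therefore made up 78.0%, 68.8% and 82.8% of the STAG level with IL-10, and 79.0%, 72.8% and 82.2% in control. The overlap of STAG1 exons with those of PCCB, given above, may alter the STAG1 level, and its effect on this ratio and share was not tested. In both groups replicate 2 had the lowest ratio and replicate 3 the highest. The PDS5A/PDS5B ratio was the steadiest across the libraries, at 6.73, 7.59 and 6.33 with IL-10 and 7.54, 7.19 and 6.66 in control.

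The SMC1A/SMC3 ratio was 1.29, 3.42 and 1.35 in IL-10 libraries and 1.37, 1.55 and 1.29 in control libraries. WAPL/NIPBL, the releaser over the loader, was 2.94, 5.05 and 2.92 with IL-10 and 2.91, 3.36 and 2.90 in control. MAU2/NIPBL was 0.998, 4.23 and 1.04 with IL-10 and 1.08, 1.38 and 1.04 in control. By the longest coding transcript MAU2/NIPBL was higher, at 1.86, 7.87 and 1.94 with IL-10 and 1.999, 2.56 and 1.93 in control. For these 3 ratios IL-10 replicate 2 was the highest library and control replicate 2 the next, with the other 4 close together. The mean log2 ratio of IL-10 minus control was -0.10 for STAG2/STAG1, -0.05 for PDS5A/PDS5B, 0.38 for SMC1A/SMC3, 0.20 for WAPL/NIPBL and 0.51 for MAU2/NIPBL. An exact two-sided permutation test gave 0.8, 0.8, 0.8, 0.5 and 0.9, all 0.9 after adjustment over the 5 ratios, and 0.1 is the smallest p that 3 against 3 allows. With pairs 1 and 3 only the differences lay between -0.12 (PDS5A/PDS5B) and 0.01 (WAPL/NIPBL). After the GC and length correction they were -0.03 for STAG2/STAG1, -0.15 for PDS5A/PDS5B and 0.22 for SMC1A/SMC3. For WAPL/NIPBL and MAU2/NIPBL they were then 0.15 each. The exact permutation test on corrected values gave an adjusted p of 0.5 for PDS5A/PDS5B and 0.9 for the other ratios.

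**Figure D5:**
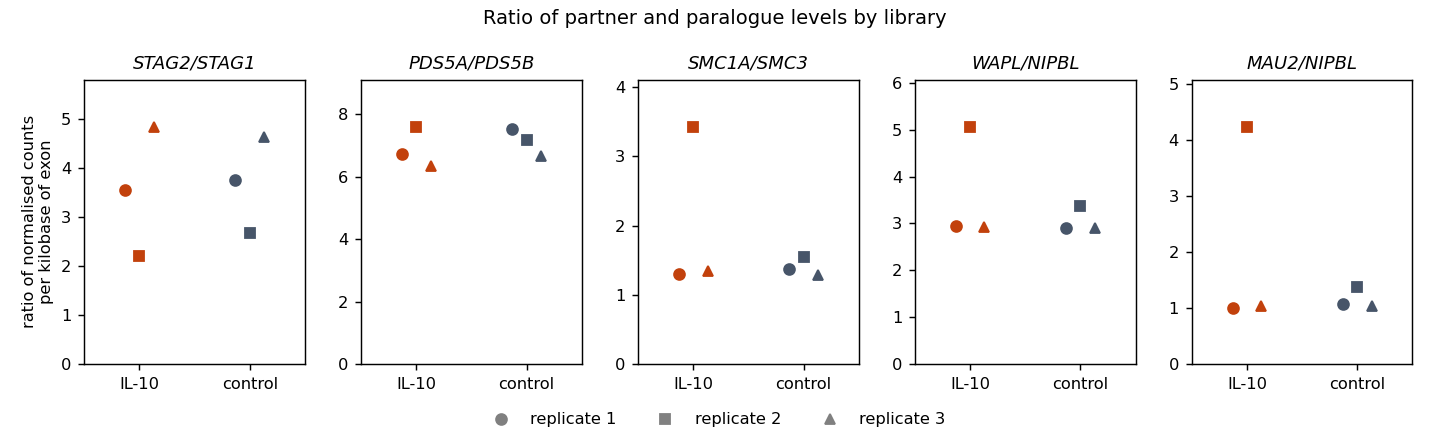
Ratio of normalised counts per kilobase of exon (vertical axis, linear from 0) for 5 pairs of genes in each library, IL-10 left of control; circles, squares and triangles are replicates 1, 2 and 3. For SMC1A/SMC3, WAPL/NIPBL and MAU2/NIPBL the IL-10 square stands above the rest, at 3.42, 5.05 and 4.23.

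The wider set of 41 genes that act with cohesin or form the related condensin and SMC5/6 complexes gave 40 that were tested, and RAD21L1 was not analysed here. None passed the threshold in limma (0 of 40, beside 0% of all genes). Their log2 fold changes were positive in 23 and negative in 17, with a median of 0.05. With equal totals, where the median over all genes was -0.08, the split of positive to negative was 16 to 24. With quantile scaling the split was 17 to 23. Without IL-10 replicate 2 it was also 16 to 24, with a median of -0.03. Genes of the acetylation cycle, which locks cohesin in place in S phase, had a median of -0.20, with pair medians of -0.0048, -0.66 and 0.01 in pairs 1, 2 and 3. Among them the acetyltransferase gene ESCO1 stood at 1289.99, 398 and 1334 with IL-10 and 1315, 1041 and 1308 in control, and CDCA5, which encodes sororin, at 2633, 4230.1 and 2564 with IL-10 and at 2750.2, 3071 and 2573 in control. IL-10 replicate 2 was again the lowest library for ESCO1 and the highest for CDCA5.

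Genes of cleavage and protection had a median of 0.04. ESPL1, the separase that cuts RAD21 at anaphase, stood at 2525, 3296 and 2286 with IL-10 and 2529, 2503 and 2205 in control, and the mitotic kinase gene PLK1 at 2141, 5517 and 1983 with IL-10 and at 2113, 3281 and 1987 in control. PLK1 was high in both replicate 2 libraries. Replication-coupled cohesion genes had a median of 0.04, with TIMELESS, of the fork protection complex, at 5294, 6665 and 4328 with IL-10 and at 5046, 5369.9 and 4344 in control. The helicase gene DDX11, whose reads can be shared with near-identical copies, stood at 3364, 4455 and 3059 with IL-10 and 3692, 3708 and 3078 in control.

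Chromatin partners had a median of 0.09, with the zinc finger factor gene YY1 at 3445, 4262 and 2887 with IL-10 and at 3223, 3664 and 2976 in control. Of condensin, which compacts mitotic chromosomes (median -0.02), SMC4 stood at 6445, 2551 and 5881 with IL-10 and at 6023, 5954 and 5908 in control, and NCAPD3 at 5171, 5405 and 4662 with IL-10 and at 5173, 4984 and 4448 in control. SMC4, an ATPase of the same family as SMC3, had the SMC3 pattern of 1 low library, IL-10 replicate 2. In the SMC5/6 complex, which acts in DNA repair (median -0.05), SMC5 stood at 2276, 1067 and 2155 with IL-10 and 2249.9, 2209 and 2263 in control, and NSMCE3 at 1182, 1644 and 1148 with IL-10 and at 1146, 1276 and 1169.9 in control. Meiotic cohesin genes were low, and their 3 log2 fold changes were positive with a median of 0.28, none past the threshold. REC8 stood at 98.3, 123 and 74.1 with IL-10 and 85.7, 115 and 72.95 in control, and STAG3, which has partial copies that can share its reads, at 19.2, 25.9 and 36.1 with IL-10 and at 25.2, 14.9 and 25.8 in control.

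The genes most like the members were ranked by Pearson's r over the 6 libraries with the mean of the members' log2 values, each centred. The 5 closest of 11556 were SETDB2 (0.999), U2SURP (0.999), CBX3 (0.999), OSGIN2 (0.999) and JAK2 (0.999). JAK2, which encodes a Janus kinase, stood at 475, 216 and 449 with IL-10 and 455, 492 and 442 in control, and CBX3, which encodes a heterochromatin protein, at 5305, 3392 and 5051 with IL-10 and at 5049, 5404 and 5085 in control. IL-10 replicate 2 was the lowest library for each of the 5, and their transcripts held 36.2% to 40.04% GC. An r of at least 0.95 was reached by 870 genes (7.53%), and without IL-10 replicate 2 the r of the 5 genes was 0.967 to 0.996. Because the 5 genes were picked by r over all 6 libraries, that range reuses the same values and is a description only. The members themselves did not share 1 pattern: each gene's r with the mean of the other 9 was 0.93 to 0.99 for RAD21, SMC3, STAG2, NIPBL, WAPL, PDS5A and PDS5B, 0.57 for STAG1, -0.28 for SMC1A and -0.91 for MAU2. Over the 5 libraries other than IL-10 replicate 2 the signs were mixed in another way. It was then 0.88 for SMC1A, 0.81 for WAPL, 0.79 for PDS5A, 0.77 for STAG1, 0.53 for MAU2, 0.25 for PDS5B, 0.0023 for SMC3, -0.64 for NIPBL, -0.80 for STAG2 and -0.85 for RAD21.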

How the data were processed

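RNA-seq of 6 Kasumi-1 libraries was used, 3 with IL-10 and 3 control, grouped by title. TruSeq RNA libraries were made from 1 ug of total RNA, per the labels' protocols. Per the submitters' processing notes, edgeR 3.18.1 and the build GRCh38 (hg38) were used, in roles not stated. How reads were aligned and counted, and whether by strand, is not given in the sources used here. The table is named as FPKM, but the authors deposited a normalised signal, reads divided by 1 size factor per library: 100% of values in each library were whole multiples of 1 step within 0.01 read, which puts the factors at 0.851 to 1.12. The step of control replicate 2 is 0.994, so near 1 that edgeR was also run without that library.

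Members and gene lists were chosen with earlier results of these data known. Symbols came from the gene name table (26883 of 27576 identifiers matched), coordinates, length and GC of the longest coding transcript from GENCODE 29 (27052 matched). Genes reaching 1 in 3 or more libraries were tested two-sided in limma 3.58.1 under R 4.3.3, with its trend option, after a log2(value + 1) transform, and p-values were adjusted by Benjamini-Hochberg over all of them. Fold changes keep that scale, which understates those of low genes. The quasi-likelihood test of edgeR 4.0.16 and DESeq2 1.42.0 were run on recovered reads. The fits were tested on simulated data. Alternatives changed the pseudocount, filter, scaling, trend, weights, replicate block, a GC and length correction and the libraries included. Ratios between members were compared by exact permutation. Genes named in the results are the members, the 2 of highest mean in each class of the wider set, and the 5 most alike in pattern. The values of 1 gene that this rule names are not reported here. Marker and overlapping genes are named beside the results they touch, and other genes of the wider set in the closing section were chosen after their values were seen. Deviations from group means correlated at 0.356, 0.602 and 0.726 between same-numbered libraries, each over 0.1, so the numbers, which are all that the labels share, were taken to pair the samples. Differently numbered libraries were at -0.695 to 0.203. IL-10 replicate 1 with control replicate 3 (0.167) and IL-10 replicate 3 with control replicate 1 (0.203) were also over 0.1. That limit alone therefore does not single out the same-numbered pairs.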

Additional observations from a re-analysis of the deposited data

How the results depend on the processing

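The count of 0 members past the threshold held under the 24 other settings tried, in limma, edgeR and DESeq2, with member adjusted p-values of 0.799 or above. The count over all genes was 0 except for pairs 1 and 3 only with the replicate block, where 11 genes passed (10 higher, 1 lower), none of them in either list. That fit uses 4 libraries, and the cause was not tested. With all 6 libraries, adding the replicate block called 0 genes and 0 members (member adjusted p-values of 0.851 or above) and changed no other call. The median log2 fold change of the members was -0.20 with the replicate block, -0.31 to 0.03 over scaling, weighting and correction, and -0.33 to 0.01 when 1 library was left out, the highest without IL-10 replicate 2. With 0 genes called, no call could reverse. In limma, changing only the filter or the trend option, or adding the replicate block, leaves the members' fold changes and their median as they were. No sign could change under those settings, which are counted here with the rest. Of 240 member values under other settings, none of them past the threshold, 38 had the opposite sign. Of these, 8 came without IL-10 replicate 2, 7 from each fit of pairs 1 and 3, which also lack that library, and 7 with array weights. Of 55 ratio values, 8 had the opposite sign. Those by the longest transcript, and those with the replicate block over all 3 pairs, equal the main values by construction. Adjusted p-values of the exact ratio tests were 0.5 or above, the lowest for PDS5A/PDS5B with the GC and length correction. In the paired test of 3 pairs the smallest adjusted value was 0.75. With so few libraries none of these ratio tests could give a p under 0.05, so they cannot show that the ratios were unchanged. Pairs 1 and 3 without the block was added after seeing the data and called 0 genes. The lowest member count was 540 reads, for PDS5B in IL-10 replicate 2, and libraries of 1 group spread around their fit with an SD of 0.31 in log2 units, the median over the members.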

Other observations

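In the wider set, genes of low transcript GC tended to be low in IL-10 replicate 2, as they did over all genes. Of 16 genes under 42% GC, 13 lay below the mean of the 5 others in that library, and of 15 genes over 50% GC all 15 lay above it. The exceptions under 42% GC were SMC1B (0.27), TIPIN (0.15) and NSMCE3 (0.47). Over 11575 genes the median deviation ran from -0.75 in the bin of lowest GC to 0.86 in the highest, with a Spearman rho of 0.77. The trend is therefore not particular to this set, and the share of all genes in the same GC ranges is not given here. Across the 40 genes, which share this library and are not replicates, the Spearman rho of GC content with the log2 deviation was 0.91. The lowest were SGO2, a protector of centromeric cohesion (-1.71, 34.7% GC), and ESCO1 (-1.65, 36.1%), and the highest were MAZ, a zinc finger factor (1.84, 66.0%), and PLK1 (1.29, 57.3%). Among the SMC ATPases, SMC2 (-1.07), SMC4 (-1.24), SMC5 (-1.06) and SMC6 (-1.21) lay close to SMC3 (-1.24), at 36.6% to 38.9% GC, and SMC1A (0.09, 47.2%) and SMC1B (0.27, 39.5%, at a mean of 6.27 normalised reads) did not. These genes were chosen after their values were seen, and no test of the pattern is given.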
